A study of Mus musculus with 6 samples.

Results

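The genes described are 37 genes of glycolysis and of the response to low oxygen, found by symbol in a table of 55291 genes measured in 6 libraries of mouse liver tumour macrophages. All 37 symbols were found. Of these, 25 belong to glucose uptake, glycolysis, lactate export and the control of pyruvate dehydrogenase, and 12 to oxygen sensing and its target genes. The list was drawn up with earlier results of these data known, so its members stand as a description of one pathway and not as a blind choice.

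The libraries hold messenger RNA of tumour-associated macrophages (TAM) from mouse liver tumours, labelled by the surface receptor TREM2. There are 3 libraries labelled TREM2+ and 3 labelled TREM2-. The labels give no mouse strain, age, tumour model or sorting gate. They do not say whether each replicate is its own animal, so a p-value here reflects only variation among these 6 libraries, part of which may be technical. Values are given in replicate order as TPM, a length-scaled level of a transcript, here rescaled to a total of 1000000 in each library.

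Glycolysis breaks glucose down to pyruvate in the cytosol. Transporters bring glucose in, hexokinase traps it as a phosphate, phosphofructokinase commits it to breakdown, and lactate dehydrogenase turns pyruvate into lactate, which leaves through monocarboxylate transporters. In low oxygen, prolyl hydroxylases stop marking hypoxia-inducible factor for destruction, and the stabilised factor switches on most glycolytic genes together with genes for vessel growth, mitochondrial turnover and collagen folding. In macrophages the same factor can also be stabilised by inflammatory signals, and activated macrophages are known for high glucose use.

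The libraries held 11523162 to 19976206 recovered reads, and each tested member other than Pfkm, Ddit4 and Adm had at least 100 reads in every library. Transcripts of a repeat family around Gm10800 took 0.70%, 5.05% and 17.5% of all TPM in TREM2+ replicates 1 to 3 and 0.43%, 12.9% and 24.6% in TREM2- replicates 1 to 3, so they lower every other TPM unequally. Trem2 itself, which checks the labels, had 39.6, 40.8 and 30.7 TPM in the TREM2+ libraries, against 16.9, 20.5 and 21.1 TPM in the TREM2- libraries (adjusted p = 0.0855 in limma). All 10 macrophage markers were expressed in every library. Transcripts of other cells were present too, and their levels are given after the results.

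Most members had higher levels in the TREM2+ libraries, few of them past the threshold. Summed over the 25 glycolysis members the level was 10809 ± 1537 TPM over the TREM2+ libraries and 6469 ± 781 TPM over the TREM2- libraries (SD, n = 3 each), a ratio of 1.67, and over the 12 hypoxia response members it was 1456 ± 212 TPM over the TREM2+ libraries and 812 ± 189.5 TPM over the TREM2- libraries, a ratio of 1.79. In 26 of the 36 members tested all 3 TREM2+ libraries lay above all 3 TREM2- libraries, against 9.07% of all 13788 genes tested. The opposite order held for 1 member, Slc2a6, against 7.62% of all genes. The glucose transporter gene Slc2a1, the glycolytic switch Pfkfb3 and the peptide hormone gene Adm rose past the threshold, and none fell.

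Each gene was tested with limma on log2(TPM + 1), two-sided, with the p-value adjusted over all genes and a threshold of 0.05. This called 3 of 36 members higher, where the background was 2.05% of all genes, and 0 lower, where it was 0.37%. At an adjusted p under 0.1 there were 10 members higher, against 3.08% of all genes, and 0 lower, against 0.645%. At an unadjusted p under 0.05, 26 were higher and 1 was lower, against 7.45% and 5.34% of all genes. The members' median log2 fold change was 0.69, with a median of -0.09 over all genes tested, and 33 of 36 members lay above 0, as did 39.0% of all genes. The 36 tested members had at least 1 TPM in all 6 libraries, so none of them passed the filter on low values through 1 group alone. The neuronal enolase Eno2 was not tested, with 0 to 0.143 TPM in the 6 libraries.

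**Figure D1:**
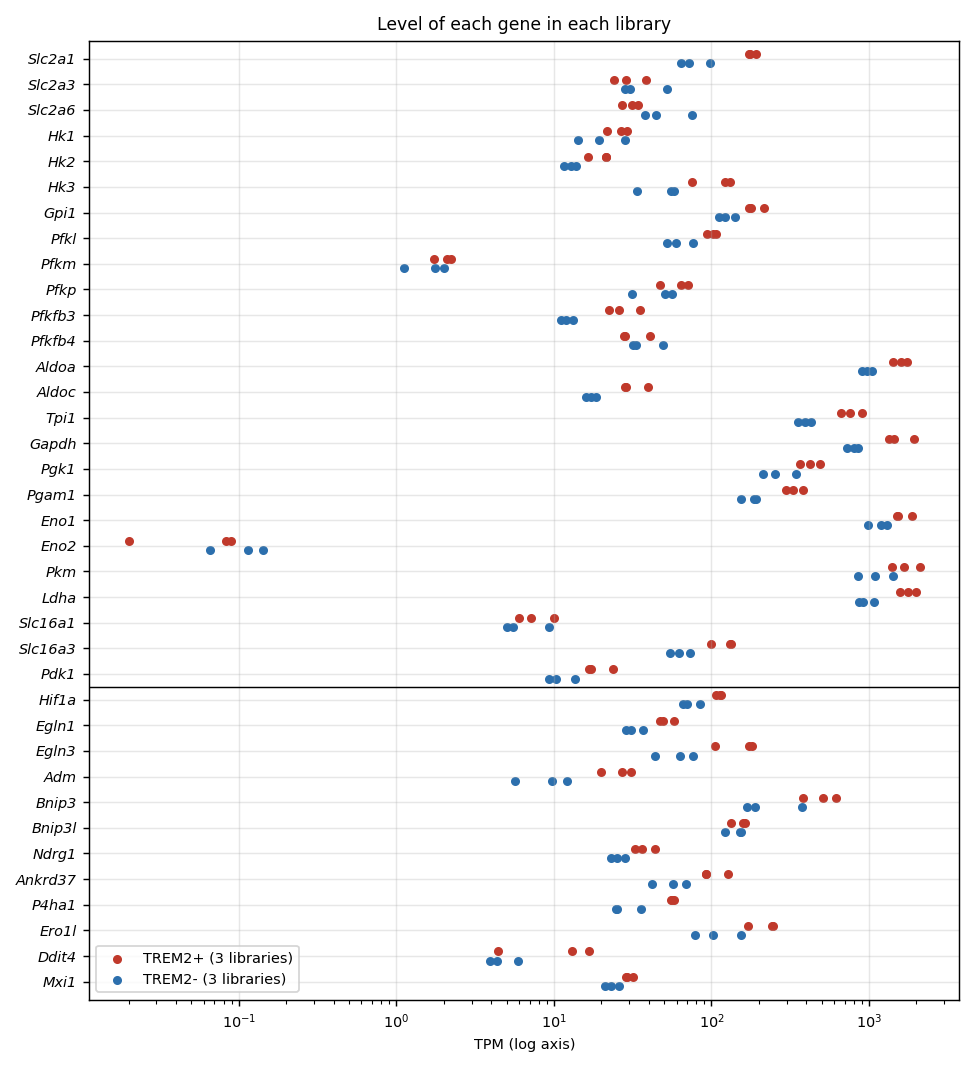
TPM of each of the 37 genes (log axis) in each library, TREM2+ in red above TREM2- in blue, with glycolysis genes above the line and hypoxia response genes below it; a library at 0 is drawn at 0.02 TPM. The red points lie wholly to the right of the blue points for 26 genes and wholly to the left for Slc2a6.

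How many members passed depended on the setting, while the sign of their median did not. With voom, a count-based form of limma, on recovered reads, 12 members were called higher, against 3.32% of genes, and 0 lower, against 1.28%. Without TREM2+ replicate 1 there were 0, against 1.0% of all genes, and 16 at an unadjusted p under 0.05, against 5.67%. Without TREM2- replicate 3 there were 0, against 0.791%, and 22 at an unadjusted p under 0.05, against 5.8%. With the replicate number as a block 0 members were called higher, against 0.841% of all genes. Over the 21 refits the number of members above 0 stayed between 31 and 34.

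Glucose enters through facilitative transporters, and here the 3 measured ones differed in direction. Slc2a1, which encodes the widespread transporter GLUT1 (ENSMUSG00000028645.11, chr4:119108711-119137983 on the + strand, mm10), had 192, 174 and 174 TPM in the TREM2+ libraries, against 71.6, 97.4 and 64.1 TPM in the TREM2- libraries. The lowest TREM2+ library was well above the highest TREM2- library. The means were 179.9 ± 10.2 TPM over the TREM2+ libraries and 77.7 ± 17.5 TPM over the TREM2- libraries, and the log2 fold change was 1.22 ± 0.22 (SE, limma) with an adjusted p of 0.0264. Among the refits it was called in 12 of 21, with adjusted p from 0.00770 to 0.233, and of those that leave out 1 library only in the one without TREM2- replicate 2.

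Slc2a6, which encodes the lysosomal transporter GLUT6 (ENSMUSG00000036067.12, chr2:27021363-27027998 on the - strand), ran the other way. It had 31.5, 27.0 and 34.1 TPM in the TREM2+ libraries, against 75.4, 44.2 and 37.9 TPM in the TREM2- libraries. All 3 TREM2+ libraries were below the TREM2- libraries, with TREM2- replicate 1 far above the rest, and the log2 fold change of -0.69 ± 0.28 did not pass (adjusted p = 0.342). Slc2a3, which encodes the high-affinity transporter GLUT3 of neurons and leukocytes, had 24.1, 28.8 and 38.6 TPM in the TREM2+ libraries, against 52.1, 28.4 and 30.4 TPM in the TREM2- libraries. Its groups overlapped, and its log2 fold change was -0.24 ± 0.29.

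The make-up of each step was compared as the share of each gene in the step's summed TPM, a measure that does not depend on how a library is scaled. Of the summed TPM of the 3 transporters, Slc2a1 made up 77.5, 75.8 and 70.5% in the TREM2+ libraries, against 35.9, 57.3 and 48.4% in the TREM2- libraries. Slc2a6 made up 12.7, 11.7 and 13.8% in the TREM2+ libraries, against 37.9, 26.0 and 28.6% in the TREM2- libraries, and Slc2a3 made up 9.74, 12.5 and 15.7% in the TREM2+ libraries, against 26.2, 16.7 and 23.0% in the TREM2- libraries. The groups did not overlap for any of the 3, and each gave p = 0.1 in a two-sided exact permutation test, the lowest value a design of 3 and 3 libraries can give (adjusted p = 0.214 over 15 shares).

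Of the hexokinases, which phosphorylate glucose, Hk3, the isoform typical of myeloid cells, was the most abundant. Hk3 had 132, 75.1 and 123 TPM in the TREM2+ libraries, against 58.1, 55.0 and 33.8 TPM in the TREM2- libraries. The groups were apart, with TREM2+ replicate 2 the lowest of its group, and the log2 fold change of 1.15 ± 0.30 was among the largest of the members but did not pass (adjusted p = 0.106). Hk2, the insulin- and hypoxia-responsive isoform, had 21.5, 21.5 and 16.5 TPM in the TREM2+ libraries, against 13.8, 11.6 and 12.9 TPM in the TREM2- libraries. It too was apart, at a log2 fold change of 0.59 ± 0.22 (adjusted p = 0.268). The housekeeping isoform Hk1 overlapped between the groups at a log2 fold change of 0.36 ± 0.28. As a share of the 3 hexokinases Hk1 made up 16.04, 18.4 and 16.2% in the TREM2+ libraries, against 28.1, 22.5 and 23.4% in the TREM2- libraries, lower in every TREM2+ library (exact permutation p = 0.1, adjusted p = 0.214). The shares of Hk2 and Hk3 overlapped.

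Gpi1, the isomerase that follows, had 215, 177 and 172 TPM in the TREM2+ libraries, against 140.3, 122 and 112 TPM in the TREM2- libraries. Its groups were apart at a log2 fold change of 0.59 ± 0.21 (adjusted p = 0.257). Of the phosphofructokinase subunits, the liver-type Pfkl was the most abundant and had 106, 102 and 94.0 TPM in the TREM2+ libraries, against 59.6, 76.4 and 52.2 TPM in the TREM2- libraries. It was higher in all 3 TREM2+ libraries, with 0.69 ± 0.22 on the log2 scale (adjusted p = 0.193). The platelet-type Pfkp (0.42 ± 0.28) and the scarce muscle-type Pfkm (0.20 ± 0.26) overlapped, as did the shares of the 3 subunits.

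Phosphofructokinase is set by a sugar bisphosphate that the bifunctional PFKFB enzymes make and break, and PFKFB3 is the isoform with the strongest bias towards making it. Pfkfb3 (ENSMUSG00000026773.19, chr2:11471433-11554077 on the - strand) had 34.9, 25.8 and 22.3 TPM in the TREM2+ libraries, against 11.9, 13.2 and 11.0 TPM in the TREM2- libraries. Every TREM2+ library was above every TREM2- library, with TREM2+ replicate 1 the highest. The log2 fold change was 1.12 ± 0.23 with an adjusted p of 0.0458, called in 8 of 21 refits (0.00574 to 0.317) and in 0 of the 6 that leave out 1 library. Pfkfb4, the other hypoxia-responsive isoform, had 28.4, 41.0 and 27.8 TPM in the TREM2+ libraries, against 49.3, 31.8 and 32.97 TPM in the TREM2- libraries, and its groups overlapped. Of the sum of both genes, Pfkfb3 made up 55.1, 38.6 and 44.5% in the TREM2+ libraries, against 19.5, 29.3 and 25.1% in the TREM2- libraries. These shares did not overlap (exact permutation p = 0.1, adjusted p = 0.214), while the summed level of both genes did, with a ratio of 1.20.

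**Figure D2:**
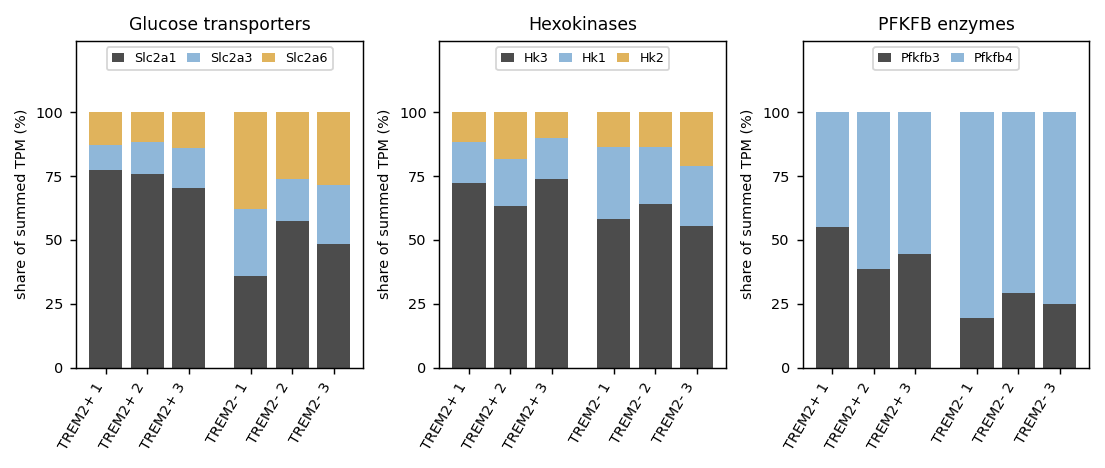
Share (%) of each gene in the summed TPM of its step, for the glucose transporters, the hexokinases and the PFKFB enzymes, with 1 bar per library, TREM2+ left of TREM2-. Slc2a1 took over 70% of transporter transcripts in each TREM2+ library and under 58% in each TREM2- library, and the share of Pfkfb3 was likewise higher in every TREM2+ library.

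The enzymes of the lower pathway were among the more abundant transcripts of these libraries. Aldoa, the main aldolase, had 1747, 1411 and 1590.2 TPM in the TREM2+ libraries, against 1047, 969 and 898 TPM in the TREM2- libraries. Tpi1, which interconverts the triose phosphates, had 904, 668 and 756 TPM in the TREM2+ libraries, against 429.7, 394 and 356 TPM in the TREM2- libraries. Gapdh, which oxidises glyceraldehyde phosphate, had 1926, 1347 and 1433 TPM in the TREM2+ libraries, against 856, 802 and 722 TPM in the TREM2- libraries. In all 3 genes the lowest TREM2+ library was clearly above the highest TREM2- library. The log2 fold changes were 0.70 ± 0.21 for Aldoa (adjusted p = 0.171), 0.97 ± 0.22 for Tpi1 (adjusted p = 0.0598) and 0.97 ± 0.23 for Gapdh (adjusted p = 0.0741), so none passed.

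The minor aldolase Aldoc, known from brain and from hypoxic cells, had 28.8, 28.2 and 39.5 TPM in the TREM2+ libraries, against 17.1, 18.6 and 15.9 TPM in the TREM2- libraries. It was apart as well (0.85 ± 0.22, adjusted p = 0.104), and Aldoa kept 97.6% to 98.4% of the aldolase sum in all 6 libraries. Pgk1, the first step that yields ATP, had 486, 364 and 424 TPM in the TREM2+ libraries, against 252, 342 and 214 TPM in the TREM2- libraries. The groups were apart by a narrow margin, between TREM2+ replicate 2 and TREM2- replicate 2, and overlapped once the repeat family was left out. Pgam1, phosphoglycerate mutase, had 382, 296 and 329.7 TPM in the TREM2+ libraries, against 187, 192 and 153 TPM in the TREM2- libraries. Its gap was wider, with log2 fold changes of 0.92 ± 0.21 for Pgam1 (adjusted p = 0.0679) and 0.67 ± 0.25 for Pgk1 (adjusted p = 0.271).

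Eno1, the main enolase, had 1872, 1529.5 and 1506 TPM in the TREM2+ libraries, against 1195, 1303 and 989 TPM in the TREM2- libraries. It was apart with a smaller log2 fold change than Aldoa, Tpi1, Gapdh, Pgk1 and Pgam1, 0.49 ± 0.23 (adjusted p = 0.416). Pkm, pyruvate kinase, had 2101, 1392 and 1655 TPM in the TREM2+ libraries, against 1087, 1417 and 851 TPM in the TREM2- libraries. Here the groups overlapped, because TREM2- replicate 2 was above TREM2+ replicate 2 (log2 fold change 0.63 ± 0.27). Ldha, the lactate dehydrogenase subunit that favours lactate formation (ENSMUSG00000063229.15, chr7:46841475-46855627 on the + strand), had 1989, 1574 and 1776 TPM in the TREM2+ libraries, against 1073, 909.9 and 868 TPM in the TREM2- libraries. Its groups were apart, with a log2 fold change of 0.90 ± 0.22 and an adjusted p of 0.0803. The other subunit, Ldhb, which favours pyruvate, had 32.97, 50.1 and 28.6 TPM in the TREM2+ libraries, against 54.2, 73.8 and 47.0 TPM in the TREM2- libraries and showed no such order.

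Lactate leaves cells mainly through MCT4, encoded by Slc16a3. Slc16a3 had 133, 99.8 and 131 TPM in the TREM2+ libraries, against 73.1, 62.6 and 54.2 TPM in the TREM2- libraries. All TREM2+ libraries were higher, at 0.93 ± 0.22 on the log2 scale (adjusted p = 0.0786). Slc16a1, which encodes the two-way transporter MCT1, stood at 7.72 ± 2.08 TPM over the TREM2+ libraries and 6.61 ± 2.37 TPM over the TREM2- libraries, and its groups overlapped. Pdk1, the kinase that shuts pyruvate dehydrogenase in low oxygen, had 23.6, 16.6 and 17.1 TPM in the TREM2+ libraries, against 10.4, 13.6 and 9.27 TPM in the TREM2- libraries. It was apart at 0.74 ± 0.24 (adjusted p = 0.214).

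**Figure D3:**
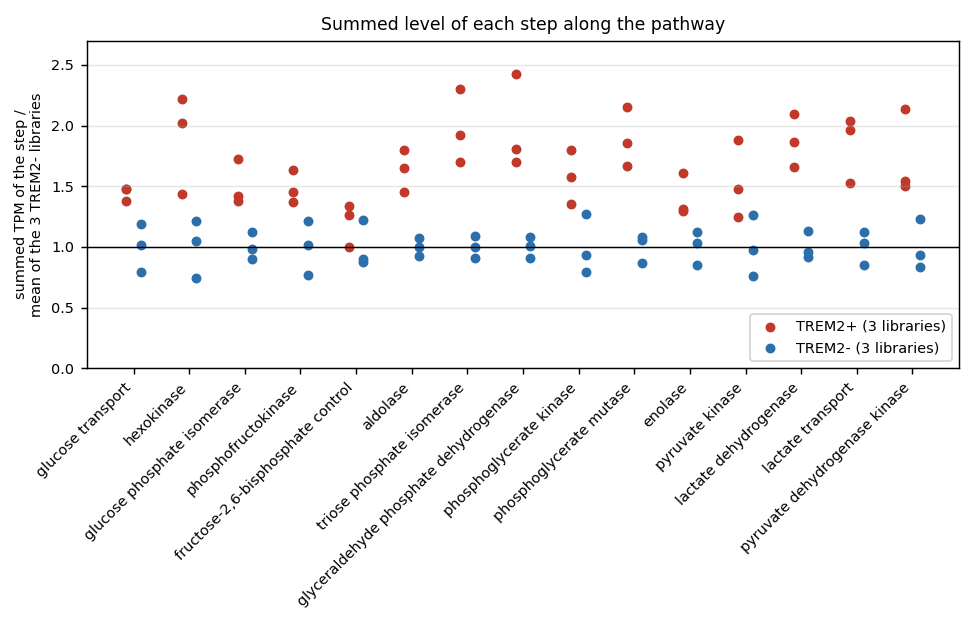
Summed TPM of the genes of each step, from glucose entry to lactate export and pyruvate dehydrogenase kinase, divided by the mean of the 3 TREM2- libraries. The TREM2+ points (left of each pair) lie above all TREM2- points at each step except the PFKFB enzymes and pyruvate kinase, where the groups overlap, and the ratio of group means runs from 1.20 to 1.98.

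Read sharing limits some of these values. In 7 members over 20% of all stretches of 50 bases also occur in other annotated genes, mostly processed pseudogenes, with 53.9% in Pgk1, 47.2% in Bnip3 and 36.2% in Pgam1. The levels of these members are therefore uncertain, and the copies themselves were counted at little, such as Pgk1-rs7 at no more than 0.620 TPM and Eno1b, a near copy of Eno1, at no more than 14.4 TPM. As no strand setting is stated, reads from overlapping genes on opposite strands cannot be told apart, which concerns over 10% of the exon bases of Gpi1, Bnip3 and Ankrd37. The row of Aldoa joins the 2 gene IDs that carry this symbol.

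The members that belong to oxygen sensing are Hif1a, Egln1 and Egln3, and none of them passed the threshold. Hif1a, the oxygen-regulated subunit of hypoxia-inducible factor, had 106, 115 and 114 TPM in the TREM2+ libraries, against 84.2, 69.6 and 65.6 TPM in the TREM2- libraries. The TREM2+ libraries lay close together and above all TREM2- libraries, at a log2 fold change of 0.61 ± 0.20 (adjusted p = 0.212). Egln3 and Egln1 encode prolyl hydroxylases that mark this factor for destruction and are themselves induced by it. Egln3 had 181, 105 and 172 TPM in the TREM2+ libraries, against 63.5, 76.9 and 44.0 TPM in the TREM2- libraries, and Egln1 had 57.6, 49.1 and 47.1 TPM in the TREM2+ libraries, against 30.7, 36.6 and 28.8 TPM in the TREM2- libraries. Both were apart, with log2 fold changes of 1.29 ± 0.30 for Egln3 (adjusted p = 0.0642) and 0.66 ± 0.21 for Egln1 (adjusted p = 0.190). Of the sum of both, Egln1 made up 24.2, 31.9 and 21.5% in the TREM2+ libraries, against 32.6, 32.3 and 39.6% in the TREM2- libraries, lower in every TREM2+ library (exact permutation p = 0.1, adjusted p = 0.214).

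Adm, which encodes the vasodilator peptide adrenomedullin (ENSMUSG00000030790.15, chr7:110627661-110629820 on the + strand), had the largest log2 fold change of the members. It had 27.2, 30.9 and 19.8 TPM in the TREM2+ libraries, against 5.68, 12.2 and 9.70 TPM in the TREM2- libraries. The TREM2+ libraries were all above the TREM2- libraries, and TREM2- replicate 1 was the lowest of all. The means were 26.0 ± 5.65 TPM over the TREM2+ libraries and 9.19 ± 3.28 TPM over the TREM2- libraries, and the log2 fold change was 1.44 ± 0.30 with an adjusted p of 0.0456. It was called in 7 of 21 refits (0.00886 to 0.276), among them 1 of the 6 that leave out 1 library, the one without TREM2- replicate 2.

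Bnip3 and Bnip3l encode receptors that send mitochondria to autophagy. Bnip3 had 617, 383 and 511 TPM in the TREM2+ libraries, against 169, 373 and 189 TPM in the TREM2- libraries. The groups met closely between TREM2+ replicate 2 and TREM2- replicate 2 and overlapped once the repeat family was left out, at a log2 fold change of 1.11 ± 0.33 (adjusted p = 0.165). Bnip3l, which also clears mitochondria from maturing red cells, had 163, 159.5 and 133 TPM in the TREM2+ libraries, against 151, 154 and 121 TPM in the TREM2- libraries. Its groups overlapped, with a log2 fold change of 0.10 ± 0.21.

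P4ha1, a collagen prolyl hydroxylase subunit, had 55.9, 57.9 and 54.9 TPM in the TREM2+ libraries, against 35.9, 25.2 and 24.8 TPM in the TREM2- libraries. Its TREM2+ libraries were nearly equal and all above the TREM2- libraries, at 0.97 ± 0.22 on the log2 scale (adjusted p = 0.0638). Ero1l, an oxidase of protein folding in the endoplasmic reticulum, had 245, 171 and 244 TPM in the TREM2+ libraries, against 102, 154 and 79.0 TPM in the TREM2- libraries. It was apart with a wider spread (1.01 ± 0.29, adjusted p = 0.143). Ankrd37, a small ankyrin repeat gene often used as a hypoxia marker, had 127, 92.6 and 92.4 TPM in the TREM2+ libraries, against 57.2, 69.1 and 42.2 TPM in the TREM2- libraries, a log2 fold change of 0.89 ± 0.25 (adjusted p = 0.140).

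Ndrg1, a stress-responsive gene of the NDRG family, had 43.6, 36.0 and 32.8 TPM in the TREM2+ libraries, against 28.2, 23.0 and 25.2 TPM in the TREM2- libraries. Mxi1, which encodes a repressor that competes with MYC for its partner MAX, had 28.5, 31.6 and 28.9 TPM in the TREM2+ libraries, against 26.0, 23.1 and 21.2 TPM in the TREM2- libraries. Both were apart by small differences, with log2 fold changes of 0.53 ± 0.21 for Ndrg1 and 0.33 ± 0.20 for Mxi1. Ddit4, which encodes the mTORC1 inhibitor REDD1, had 16.7, 13.1 and 4.44 TPM in the TREM2+ libraries, against 3.90, 5.88 and 4.34 TPM in the TREM2- libraries. TREM2+ replicates 1 and 2 were high and TREM2+ replicate 3 lay within the TREM2- range, so the groups overlapped (0.97 ± 0.42, adjusted p = 0.371), and without TREM2+ replicate 3 the log2 fold change was 1.48 with an adjusted p of 0.0476.

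**Figure D4:**
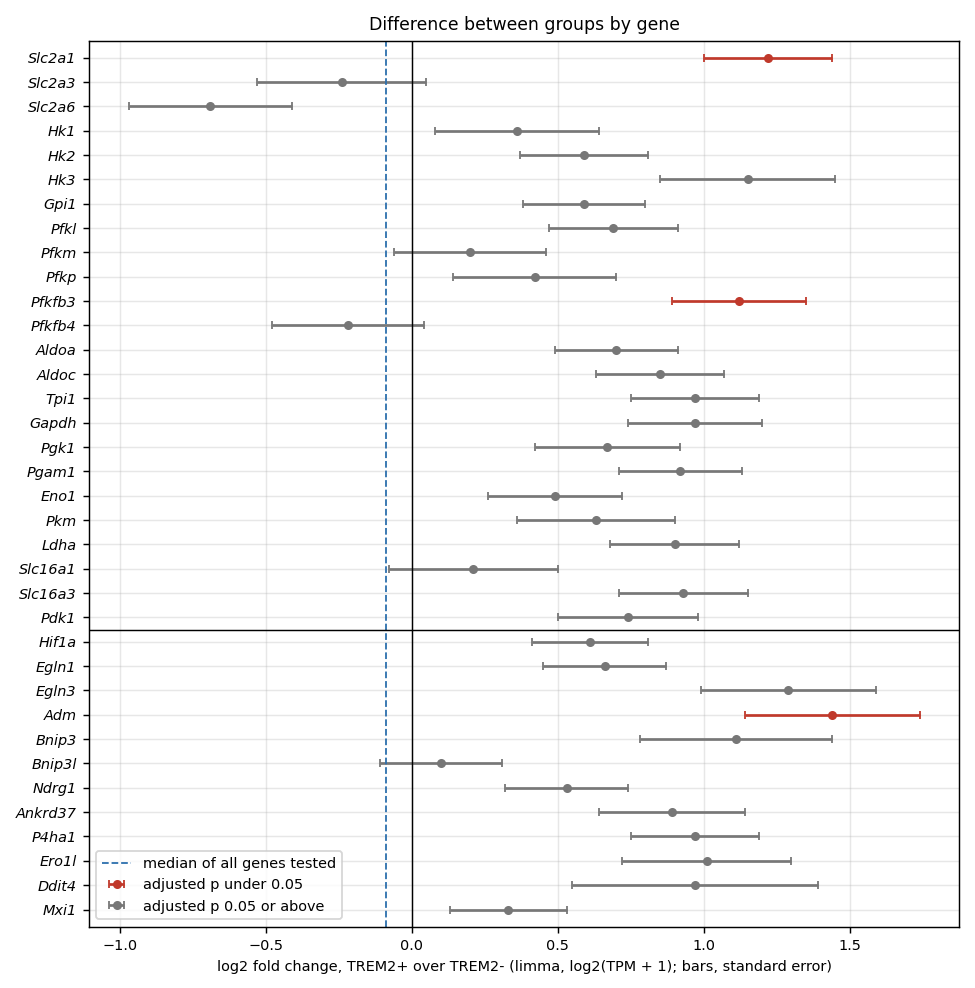
Log2 fold change of each of the 36 tested genes (points) with its standard error (bars) from limma over 3 TREM2+ and 3 TREM2- libraries, in pathway order, with the 3 called genes in red. Points other than Slc2a3, Slc2a6 and Pfkfb4 lie above 0, and the dashed line marks the median of all genes tested, -0.09.

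Which library was highest or lowest for a member depended on the scaling. Of the 36 tested members, 27 were highest in TREM2+ replicate 1 and 27 were lowest in TREM2- replicate 3, the library with the largest share of the repeat family. These counts were 17 and 4 with median-of-ratios scaling, and 11 and 6 with the repeat family left out before scaling. They were not made over all genes, so they are not shown to be a trait of the members. With the repeat family left out, 24 of the 36 members still had all TREM2+ libraries above all TREM2- libraries, against 9.36% of all genes. That scaling gave 7 members called higher (background 1.99%) and 0 lower (0.709%), and a median log2 fold change of 0.61 with -0.16 over all genes. In the deposited values without rescaling 19 members were apart in the higher direction, against 5.48% of all genes, and with mitochondrially encoded genes left out 26 were, against 8.42%. With median-of-ratios scaling 25 members were apart, against 14.5% of all genes, 11 were called higher, against 3.06%, and 0 lower, against 0.581%.

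The factor binds DNA at a core of 5 letters. Here the core means its form ACGTG on either strand, and the form GCGTG was not searched. The 250 bases before the RefSeq start of 34 members (GRCm38.p6, the build of mm10) were searched for this core, which is also part of the E-box CACGTG. A core stood in 25 of 49 such windows of the members (51.0%), against 16.6% of all 32851 windows, and 6 of the 49 held the E-box form (12.2%), against 6.0% of all windows. The median GC content was 62.8% in the members' windows and 52.4% in all windows, and its part in this difference was not tested. The members include genes listed as targets of the factor, and the windows of all genes include those of genes not tested here. The shares therefore describe the list and are no test of the factor. A match is a description of these letters and not a bound site. Windows are printed for the 3 called genes, for Ldha, whose first window held the most separate cores, and for Slc2a6, the member lower in every TREM2+ library, with each core in capitals (CACGT where it lies on the other strand):
Slc2a1 (chr4:119108495-119108744, + strand): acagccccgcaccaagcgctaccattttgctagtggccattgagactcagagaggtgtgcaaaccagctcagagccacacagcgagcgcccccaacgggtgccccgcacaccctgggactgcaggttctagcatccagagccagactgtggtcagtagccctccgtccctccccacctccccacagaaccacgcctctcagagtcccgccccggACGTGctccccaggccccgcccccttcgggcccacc
Pfkfb3 (chr2:11502091-11502340, - strand): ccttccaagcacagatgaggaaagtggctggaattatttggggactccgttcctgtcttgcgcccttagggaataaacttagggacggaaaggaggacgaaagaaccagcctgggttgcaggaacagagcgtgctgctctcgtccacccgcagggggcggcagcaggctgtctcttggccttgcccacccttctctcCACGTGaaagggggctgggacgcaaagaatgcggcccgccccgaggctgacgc
Adm (chr7:110627407-110627656, + strand): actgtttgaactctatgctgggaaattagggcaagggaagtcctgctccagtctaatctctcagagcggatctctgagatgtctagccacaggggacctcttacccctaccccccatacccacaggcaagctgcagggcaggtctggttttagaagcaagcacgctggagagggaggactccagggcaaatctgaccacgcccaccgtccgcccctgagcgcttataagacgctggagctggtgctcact
Ldha (chr7:46845554-46845803, + strand): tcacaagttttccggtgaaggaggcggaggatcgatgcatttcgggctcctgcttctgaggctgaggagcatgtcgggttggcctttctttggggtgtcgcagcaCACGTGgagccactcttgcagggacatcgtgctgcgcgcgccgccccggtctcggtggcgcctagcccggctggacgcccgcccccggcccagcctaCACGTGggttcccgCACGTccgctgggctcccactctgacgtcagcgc
Slc2a6 (chr2:27027999-27028248, - strand): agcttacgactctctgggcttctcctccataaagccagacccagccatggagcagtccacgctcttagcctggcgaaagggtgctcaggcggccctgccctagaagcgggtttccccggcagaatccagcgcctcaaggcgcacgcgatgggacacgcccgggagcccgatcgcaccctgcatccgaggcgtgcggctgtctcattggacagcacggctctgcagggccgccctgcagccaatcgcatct
The window of Slc2a1 held 1 core, that of Pfkfb3 held 1 E-box, and that of Ldha held 2 E-boxes and 1 further core. Those of Adm and Slc2a6 held no ACGTG in these 250 bases, although Adm had the largest log2 fold change of the members. The form GCGTG was not counted in any window, so these 2 windows are not shown to lack a site for the factor. The second window of Pfkfb3, farther upstream, held 1 core. Promoters with and without ACGTG thus occurred both among the genes that rose and among those that did not pass.

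Genes next to the pathway were taken from 8 lists, 133 genes in all, of which 99 were tested. Of these, 2 were called higher, a share near the 2.05% of all genes, and 0 lower, against 0.37%. At an unadjusted p under 0.05, 19 were higher and 4 lower, against 7.45% and 5.34% of all genes. Other hypoxia-induced genes resembled the members: in 13 of 23 the groups were apart in the higher direction, against 9.07% of all genes, and the list's median log2 fold change was 0.42. Hilpda, a hypoxia-induced lipid droplet protein, rose, with 1136, 901 and 1042 TPM in the TREM2+ libraries, against 299, 533 and 289 TPM in the TREM2- libraries (log2 fold change 1.51 ± 0.28, adjusted p = 0.0278). Pnrc1, a nuclear receptor coactivator, and the mitochondrial adenylate kinase Ak4 were also higher in every TREM2+ library, at 1.04 ± 0.23 and 1.16 ± 0.26 on the log2 scale (adjusted p = 0.0590 and 0.0598). The vessel growth factor Vegfa had 32.3, 51.1 and 27.4 TPM in the TREM2+ libraries, against 9.19, 18.1 and 13.7 TPM in the TREM2- libraries, which did not pass (adjusted p = 0.0644) and is named after its values were seen.

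Of 11 tested glycogen genes, 3 were higher and 2 lower in every TREM2+ library, against 9.07% and 7.62% of all genes. Ppp1r3b, a subunit that directs a phosphatase to glycogen, rose, with 42.4, 42.6 and 59.2 TPM in the TREM2+ libraries, against 18.6, 23.99 and 19.5 TPM in the TREM2- libraries (log2 fold change 1.17 ± 0.23, adjusted p = 0.0345). The glycogen synthase Gys1 (0.93 ± 0.20, adjusted p = 0.0558) and the phosphoglucomutase Pgm1 (0.88 ± 0.22, adjusted p = 0.0862) were apart in the same direction. Gyg, the primer of glycogen synthesis (-0.56 ± 0.23, adjusted p = 0.353), and the liver glycogen phosphorylase Pygl (-0.43 ± 0.23, adjusted p = 0.506) were apart in the other, and both are named after their values were seen. Both margins were narrow: TREM2+ replicate 2 had 91.4 TPM of Gyg, against 93.3 TPM in TREM2- replicate 3. For Pygl it had 89.2 TPM, against 91.2 TPM in TREM2- replicate 2. The median of the 11 genes was 0.12. Of the 6 fits with 1 library left out, Hilpda and Ppp1r3b were each called in 1, the one without TREM2- replicate 2.

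Routes that lead glucose carbon elsewhere did not share the order of the members. Of 7 tested pentose phosphate genes 0 were called, where 2.05% of all genes were called higher and 0.37% lower. Their median was -0.22, and 0 had a log2 fold change above 0, against 39.0% of all genes. In 2 of the 7 every TREM2+ library was lower, against 7.62% of all genes. Of the 7, G6pdx, the entry enzyme, had 136, 144 and 119.5 TPM in the TREM2+ libraries, against 243, 197 and 150.1 TPM in the TREM2- libraries. On the log2 scale Taldo1, transaldolase, stood at -0.46 ± 0.24 and Pgls, a lactonase, at -0.27 ± 0.25. The groups of Taldo1 nearly met, at 782 TPM in TREM2+ replicate 2 and 783 TPM in TREM2- replicate 3. Of 10 tested genes of pyruvate entry into mitochondria 0 were called in either direction, against the same 2.05% and 0.37%, with a median of -0.14. The pyruvate carrier subunit Mpc1 had 61.8, 74.8 and 54.2 TPM in the TREM2+ libraries, against 80.8, 114 and 79.8 TPM in the TREM2- libraries (adjusted p = 0.425), and the pyruvate dehydrogenase genes Pdhx and Pdhb had log2 fold changes of -0.39 ± 0.21 and -0.43 ± 0.24. The 5 tested gluconeogenesis genes had a median of -0.20, led by Fbp1 (-0.59 ± 0.42), Pck1 (-0.41 ± 0.36) and G6pc3 (-0.20 ± 0.24), all with overlapping groups. Whether these lists differ from the members was not tested.

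Other genes of glycolysis and glucose uptake, most of them isoforms of other tissues, had 13 tested genes, 0 called and a median of -0.17. Here and in the lists that follow, 0 called stands beside 2.05% of all genes called higher and 0.37% lower. The muscle mutase Pgam2 had 1.85, 1.503 and 1.30 TPM in the TREM2+ libraries, against 8.28, 3.51 and 5.55 TPM in the TREM2- libraries (log2 fold change -1.35 ± 0.30, adjusted p = 0.0598), against the direction of Pgam1. The copy Eno1b (0.74 ± 0.21) and Ldhb (-0.65 ± 0.28) had the next smallest p. Of 13 tested genes of the wider oxygen-sensing machinery 0 were called, with a median of 0.01: Epas1, the sister factor of Hif1a, had 1.37, 1.61 and 1.39 TPM in the TREM2+ libraries, against 0.642, 0.264 and 0.334 TPM in the TREM2- libraries, apart but past the filter only through the TREM2+ libraries, with log2 fold changes of -0.57 ± 0.25 for the ubiquitin ligase gene Siah2 and -0.31 ± 0.26 for the lectin Os9. Of 17 tested glucose-sensing and mTORC1 regulators 0 were called, with a median of 0.06. Mxd1, a relative of Mxi1, had 141, 132 and 176 TPM in the TREM2+ libraries, against 69.3, 91.1 and 64.7 TPM in the TREM2- libraries (adjusted p = 0.0653), followed by the stress sensor Sesn2 (0.59 ± 0.24) and the arrestin-like Arrdc4 (0.59 ± 0.24).

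**Figure D5:**
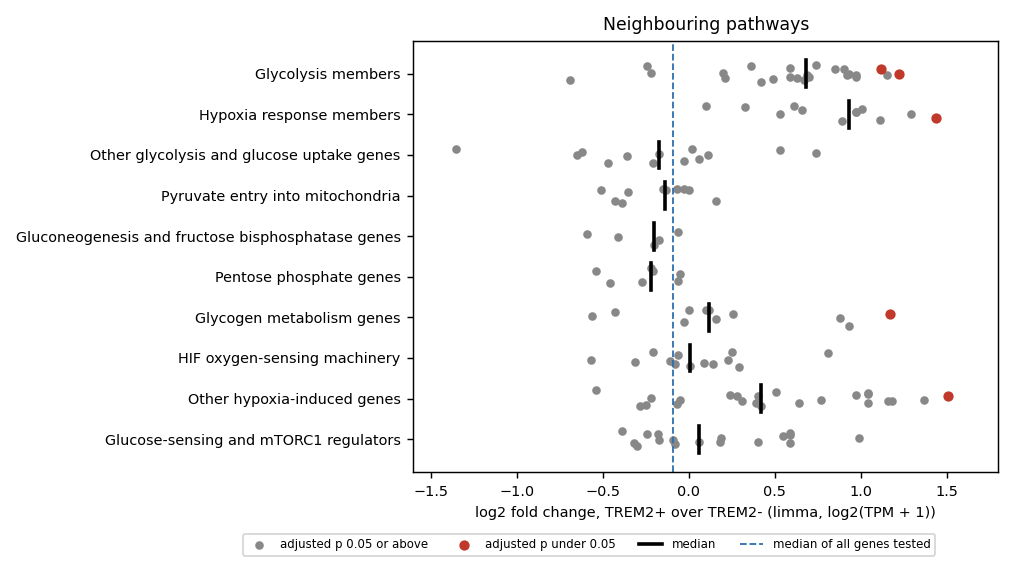
Log2 fold change of each tested gene (points, jittered within a row) of the members and of 8 neighbouring lists, with the median of each list (black bar) and of all genes tested (dashed line, -0.09); called genes are red. The medians are 0.68 for the glycolysis members, 0.93 for the hypoxia response members and 0.42 for other hypoxia-induced genes, and between -0.22 and 0.12 for the other 7 lists.

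Markers of other cells differed between the groups. In bulk libraries fewer cells of a type and less RNA per cell cannot be told apart. All 12 endothelial markers had higher levels in all 3 TREM2+ libraries, against 9.07% of all genes. Of the 12, 9 were called higher, against 2.05% of all genes, and the median log2 fold change of the 12 was 2.09. Their sum was 385, 267 and 308 TPM in the TREM2+ libraries, against 58.4, 38.9 and 28.4 TPM in the TREM2- libraries. Of these markers, 4 were under 1 TPM in every TREM2- library and passed the filter only through the TREM2+ libraries. The 8 monocyte markers summed to 30563, 14842 and 3945 TPM in the TREM2+ libraries, against 13919, 75514 and 22185 TPM in the TREM2- libraries, a sum that overlapped. In 5 of the 8 all TREM2+ libraries lay below all TREM2- libraries, against 7.62% of all genes. Of the 8, 1 was called lower (Ly6c2), against 0.37% of all genes. The 9 markers of T and NK cells summed to 1024, 860.1 and 974 TPM in the TREM2+ libraries, against 3324, 1378 and 1415 TPM in the TREM2- libraries, lower in every TREM2+ library. Macrophage markers summed to 36388, 43299 and 33386 TPM in the TREM2+ libraries, against 69663, 75763 and 58408 TPM in the TREM2- libraries. This sum, which Lyz2 dominates, was lower in every TREM2+ library. Yet 9 of the 10 markers had log2 fold changes above 0, against 39.0% of all genes. Of the 10, 2 were called higher, Aif1 being 1 of them, against 2.05% of all genes.

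Neutrophil markers summed to 16416, 20567 and 19404 TPM in the TREM2+ libraries, against 21242, 20478 and 23683 TPM in the TREM2- libraries. Of the 11, 1 was called lower (Camp) and 0 higher, against 0.37% and 2.05% of all genes. Erythroid markers summed to 4231, 26390.1 and 7636 TPM in the TREM2+ libraries, against 8625, 9992 and 30662 TPM in the TREM2- libraries, and hepatocyte and liver tumour markers to 556, 198 and 219 TPM in the TREM2+ libraries, against 807, 125 and 149.6 TPM in the TREM2- libraries. Both sums overlapped between the groups, as did that of fibroblast and stellate cell markers, at 12.4 to 28.7 TPM. None of the markers found in the table was at 0 in all 6 libraries. The part of these cells in the levels of the members was not tested.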

How the data were processed

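Messenger RNA was measured in 3 TREM2+ and 3 TREM2- libraries. Per the submitters' processing notes, STAR 2.7.10a, Subread and featureCounts 2.0.3 were used with mm10. A strand setting is not given there. The authors deposited 1 table of a length-scaled signal named TPM, in which all 6 columns together sum to 1000000. Each column was rescaled here to 1000000, although the design had assumed TPM per library. Whole reads were recovered from the signal with GENCODE M21 exon lengths (98.7% of 36745 genes above 0 were whole within 0.01 read). Differences were tested by limma 3.58.1 under R 4.3.3 on log2(TPM + 1), with trended variance, for genes at 1 TPM or more in 3 libraries, and p-values were adjusted over 13788 genes by Benjamini-Hochberg. Shares were compared with exact permutation tests. The scripts were tested on simulated data. For limma these had larger changes than any member and no uneven repeat family, so recovery of changes of the members' size was not tested. The members and lists were chosen with earlier results of these data known. Genes named outside the members are the 3 with the smallest p of each list, unless stated. Alternatives changed the pseudocount, filter, scaling, variance model and libraries. Limits on read counts cover counting error only.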

Additional observations from a re-analysis of the deposited data

How the results depend on the processing

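The members' median log2 fold change was 0.69 and lay between 0.56 and 0.85 under all alternatives. Over all genes 282 were called higher and 51 lower, of the members 3 and 0, and of the 8 neighbouring lists 2 and 0. Genes called higher, genes called lower, members higher and list genes higher came to 95, 3, 0 and 0 without the filter, 452, 57, 7 and 10 with at least 10 reads, 170, 86, 0 and 1 with deposited values not rescaled, 976, 389, 20 and 17 with library weights, 444, 171, 12 and 11 with voom, 425, 89, 10 and 10 at an adjusted p under 0.1, and 0, 0, 0 and 0 without both libraries numbered 3 (762 and 583 genes, 21 members higher, at an unadjusted p under 0.05). With median-of-ratios scaling 80 genes were lower, 11 members and 6 list genes higher, with quantile normalization 121, 7 and 6, and with TPM of at least 5, 9 members and 8 list genes were higher. A pseudocount of 0.1 gave 31 genes lower and 1 member higher, and no variance trend gave 1 member higher. Leaving out the repeat family gave 101 genes lower and 7 members higher. List genes called lower numbered 1 with at least 10 reads, median-of-ratios, quantile, the repeat family out and adjusted p under 0.1, and 3 with library weights.

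Leaving out 1 library gave 109 to 310 genes higher, 12 to 94 lower, 0 to 5 members higher, and 0 to 4 list genes higher and 0 to 1 lower. Members called were 0 without TREM2+ replicate 1, 1 without TREM2+ replicate 2 (Egln3), 1 without TREM2+ replicate 3 (Ddit4), 1 without TREM2- replicate 1 (P4ha1), 5 without TREM2- replicate 2 and 0 without TREM2- replicate 3. With the replicate number as a block, 116 genes were called higher and 10 lower, with 0 members and 0 list genes. At an unadjusted p under 0.05 that fit had 26 members higher and 1 lower, and 1112 of all 13788 genes higher and 1029 lower. Deviations of same-numbered libraries correlated at 0.188, -0.033 and 0.224, and those of unlike-numbered libraries at -0.376 to 0.131. The labels state no pairing, and the main fit used none. Whether the replicate numbers mark a shared batch was not tested. Slc2a3 ran from -0.42 to 0.02 with 1 library left out, turning sign without TREM2- replicate 1, and Bnip3l from -0.01 to 0.19, turning sign without TREM2- replicate 3, and Fbp1 and Pck1 to 0.11 and 0.12 with library weights. The cause of these changes was not tested. Among the tested members depth limits Pfkm, Ddit4 and Adm, at 28, 49 and 82 reads in their lowest libraries.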

Other observations

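In the branch between glycolysis and mitochondria, a pair of genes below the filter on low values stood apart and were chosen after their values were seen, with no test. Pdk4, a kinase that shuts pyruvate dehydrogenase, had 0.924, 1.60 and 1.73 TPM in the TREM2+ libraries, against 0.0639, 0.344 and 0.398 TPM in the TREM2- libraries. Pdp2, a phosphatase that reopens it, had 0.365, 0.690 and 0.629 TPM in the TREM2+ libraries, against 1.32, 1.06 and 0.983 TPM in the TREM2- libraries. Pdk4 was higher and Pdp2 lower in every TREM2+ library, both at low levels.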
